A study of Mus musculus with 10 samples.

Results

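*Apoe* and 8 further genes that handle lipids (*Lpl*, *Lrp1*, *Abca1*, *Abcg1*, *Soat1*, *Ch25h*, *Nr1h2* and *Nr1h3*) were examined in hippocampal microglia of 3xTg mice given glatiramer acetate (GA) or phosphate-buffered saline (PBS). The 9 genes were picked by symbol from a table of 55453 genes, and all 9 passed the filter on low counts that left 14481 genes for testing. GA is a synthetic mixture of peptides used against relapsing multiple sclerosis, and the comparison asks how microglia differ after about 8 weeks of weekly 0.1 mg injections. Both groups were female 3xTg mice older than 15 months, and the methods give 2 injections in the first week.

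Every mouse in both groups carried the 3xTg alleles, among them mutant *MAPT* (P301L) and *APP* (Swedish). The *APP* and *MAPT* transgenes are driven by the neuronal Thy1.2 promoter, so microglia themselves are not the intended site of transgene expression, and no library of a non-transgenic mouse was analysed here. Cells were sorted as CD45int CD11b+ after myelin had been removed (the labels name a Percoll gradient, the methods this or magnetic beads), their RNA was pre-amplified, and 5 libraries per group were sequenced. Library totals ran from 32332185 to 38764643 counts. The titles of all PBS libraries begin with 388 (388_1 to 388_5), those of the GA libraries with 394 (394_1 and 394_2) or 400 (400_1 to 400_3). What the prefix means is not stated, and prefix and treatment cannot be told apart. The labels do not say whether a library came from 1 mouse or from several, so the p-values measure the spread between these libraries.

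The label of the cells was compared with marker genes. The 8 microglial markers summed to 50448 to 60413 counts per 1000000 (CPM) in the PBS libraries and to 52019 to 55958 CPM in the GA libraries. Of the genes of the proteins stained for the sort, *Itgam* (CD11b) had 88.7 CPM in 388_4 and 191 to 299 CPM in all other libraries. *Ptprc* (CD45) had 497 to 605 CPM and *P2ry12*, whose protein was stained but is not in the stated gate, 5570 to 7351 CPM. The 5 neuronal markers summed to at most 1.75 CPM. The 8 astrocyte markers summed to 247 to 354 CPM, nearly all of it *Slc1a3*, whereas *Gfap* reached 4.74 CPM and *Aqp4* 0.463 CPM at most. The 6 neutrophil markers differed most, with 34.5 to 426 CPM in PBS and 8.95 to 156 CPM in GA (two-sided exact permutation test, *P* = 0.0794), and their part in the values below was not tested. The 6 markers of border-associated macrophages ran from 43.3 to 246 CPM in PBS, highest in 388_4, and from 47.3 to 185 CPM in GA. In such bulk samples, fewer cells of a type and less RNA per cell cannot be told apart.

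Apolipoprotein E coats lipid particles that carry cholesterol between cells of the brain, and microglia make more of it in many models of Alzheimer's disease. Cells take such particles up through receptors of the LDL receptor family, among them *Lrp1*, and lipoprotein lipase (*Lpl*) frees fatty acids from triglycerides. Surplus cholesterol is esterified for storage by the enzyme of *Soat1* or handed to apolipoproteins by the transporters *Abca1* and *Abcg1*. Oxysterols, such as the product of *Ch25h*, reflect that surplus, and the liver X receptors LXRα (*Nr1h3*) and LXRβ (*Nr1h2*) bind oxysterols and switch on *Abca1*, *Abcg1* and *Apoe*.

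None of the 9 genes differed between GA and PBS past the threshold. By edgeR's quasi-likelihood test, 0 of the 9 had an adjusted p-value under 0.05, as did 0 of the 14481 genes tested (0%), and 0 of the 9 had an unadjusted p-value under 0.05, beside 833 genes (5.75%) in all. DESeq2 with its defaults called 2 genes of 27495 (0.00727%), neither of them among the 9, and limma-voom called 0. The fitted difference was above 0 for 6 of the 9 genes and below 0 for 3, with a median log2 fold change of 0.04, where 50.1% of all genes tested lay above 0 and the median was 0.0002. The libraries of GA and PBS overlapped for all 9 genes, and did not overlap for 129 genes (0.891%) in all.

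Levels of different genes were compared as CPM per kilobase of exons (the merged exons of GENCODE M21 on GRCm38). *Apoe* was the most abundant of the 9, at 2835 CPM per kb on average over the 10 libraries, with a range of 2107 to 3843. It stood at rank 6 to 12 among the 14375 tested genes with an exon length in the single libraries. Next came *Lpl* with 53.5 (34.2 to 67.1) and *Lrp1* with 50.9 (42.1 to 58.1) CPM per kb, followed by *Abca1* with 38.8 and *Nr1h2* with 34.4. *Ch25h* had 24.0, *Abcg1* 17.3 and *Soat1* 16.8 CPM per kb. *Nr1h3* was last, with 0.741 (0.406 to 1.02) CPM per kb.

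The steps in this order were clear at its ends only. The level per kb of *Apoe* was 41.9 to 64.3 times that of *Lpl* within each library, and that of *Soat1* 15.0 to 51.4 times that of *Nr1h3*. The ranges of all other neighbours overlapped. *Nr1h2* lay above *Ch25h* in 10 of 10 libraries, but *Lpl* lay above *Lrp1* in only 6. With the longest transcript as the length, 7 of the 9 genes kept their place, while *Nr1h2* moved to place 4 and *Abca1* to place 5. Between the LXR genes, the level of *Nr1h2* per kb was 35.8 to 67.3 times that of *Nr1h3*, and between the transporters *Abca1* was 1.76 to 3.05 times *Abcg1*.

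**Figure D1:**
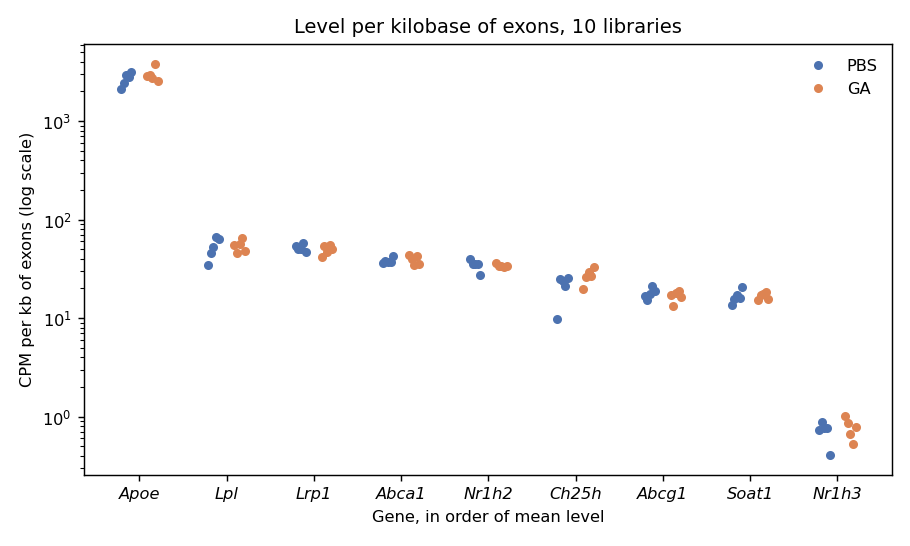
Each point is 1 library, with CPM per kb of exons on a log axis and the 9 genes in order of their mean, PBS and GA side by side. *Apoe* stands far above the rest at 2107 to 3843 CPM per kb and *Nr1h3* far below at 0.406 to 1.02, and the colours mix within every gene.

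*Apoe* (ENSMUSG00000002985.16; chr7:19696109-19699188, minus strand, protein coding, GRCm38), the ligand of the group, was counted 172149 to 313429 times per library, so counting error is small beside the spread between libraries. The PBS libraries 388_1 to 388_5 had 4505, 5232, 6254, 6013 and 6676 CPM, and the GA libraries 394_1, 394_2, 400_1, 400_2 and 400_3 had 6080, 6341, 5831, 8215 and 5454 CPM. The lowest value was that of 388_1 and the highest that of 400_2, with the other 8 libraries of both groups interleaved between them. The means were 5736 ± 866 CPM in PBS and 6384 ± 1074 CPM in GA (SD, n = 5 each). The fold was 1.11 with a 95% interval of 0.937 to 1.32 (log2 fold change 0.15, standard error 0.12, adjusted *P* = 0.910 by edgeR; two-sided exact permutation test, *P* = 0.333). The log2 fold change was 0.08 without 388_1 and 0.05 without 400_2. Of the GA libraries, 400_2 had the most counts of border-associated macrophage markers (185 CPM). PBS library 388_4 had more of them (246 CPM), with 6013 CPM of *Apoe*. Whether those cells had a part in the *Apoe* values was not tested.

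*Lpl* (ENSMUSG00000015568.16; chr8:68880491-68907448, plus strand), the secreted lipase, spread more widely than *Apoe*. The PBS libraries had 359, 475, 551, 703 and 670 CPM in the order of their numbers, and the GA libraries 574, 483, 596, 684 and 505 CPM in the order given above. The lowest and the highest value, 388_1 and 388_4, were both in the PBS group, and all GA libraries lay between them. Means were 552 ± 142 and 568 ± 79.8 CPM (SD, n = 5 each). The log2 fold change was 0.04 (95% interval -0.29 to 0.37, adjusted *P* = 0.979 by edgeR).

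*Lrp1* (ENSMUSG00000040249.15; chr10:127538161-127621148, minus strand, 88 merged exons), the large endocytic receptor for ApoE-bearing particles, had 829 to 1029 CPM in PBS and 746 to 977 CPM in GA. Means were 920 ± 77.3 and 883 ± 96.4 CPM (SD, n = 5 each). The log2 fold change of -0.06 had a 95% interval of -0.23 to 0.12 (adjusted *P* = 0.953 by edgeR). The highest PBS library was 388_4 and the lowest GA library 394_1, with the other 8 interleaved.

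The efflux transporters are textbook LXR target genes. *Abca1* (ENSMUSG00000015243.4; chr4:53030787-53159895, minus strand, 50 merged exons) loads cholesterol onto lipid-poor apolipoproteins. The PBS libraries had 373, 391, 388, 383 and 448 CPM and the GA libraries 448, 416, 360, 443 and 370 CPM. The PBS values sat close together except for 388_5, while of the GA libraries 394_1, 394_2 and 400_2 lay above the other 4 PBS libraries, and 400_1 and 400_3 below them. Means were 397 ± 29.6 and 407 ± 40.9 CPM (SD, n = 5 each), a log2 fold change of 0.04 (95% interval -0.13 to 0.20, adjusted *P* = 0.971 by edgeR).

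The promoter of *Abca1* was read because LXR and its partner RXR bind a direct repeat spaced by 4 bases (DR4, the 6 letters AGGTCA, any 4 bases, and AGGTCA again, searched on both strands). Shown are the 250 bases before the RefSeq start (chr4:53159896-53160145, minus strand, GRCm38.p6), 5′ to 3′ on the strand of the gene, with the closest match to DR4 in capitals. That match lies 67 to 52 bases before the start, on the opposite strand, and differs from DR4 in 3 letters.
Abca1: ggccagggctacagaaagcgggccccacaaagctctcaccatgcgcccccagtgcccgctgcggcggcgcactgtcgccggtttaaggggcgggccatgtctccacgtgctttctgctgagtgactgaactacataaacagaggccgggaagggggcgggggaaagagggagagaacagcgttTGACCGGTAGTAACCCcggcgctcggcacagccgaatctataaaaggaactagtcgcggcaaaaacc
The other 6 members with a window had no match with 3 or fewer differences. Of 32851 mouse promoter windows, 0.0152% held DR4 exactly, 0.24% with at most 1 difference, 2.57% with at most 2 and 18.5% with at most 3. A match this loose is common among promoters, and whether LXR binds the one in *Abca1* was not tested.

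*Abcg1* (ENSMUSG00000024030.7; chr17:31057675-31117988, plus strand), which passes cholesterol to lipidated particles, had 112 to 154 CPM in PBS and 96.1 to 136 CPM in GA. The highest value was that of 388_4 and the lowest that of 394_2. Means were 131 ± 16.0 and 122 ± 15.6 CPM (SD, n = 5 each), and the log2 fold change was -0.10 (95% interval -0.32 to 0.12, adjusted *P* = 0.940 by edgeR). PBS library 388_4 held the highest value of all 10 for *Abcg1*, *Lpl* and *Lrp1*, and also the most counts of border-associated macrophage and monocyte markers (246 and 83.9 CPM). Without it the log2 fold changes were -0.04, 0.15 and -0.01 in that order. Other libraries moved them as far: it was -0.03 for *Abcg1* without 394_2 and -0.0027 for *Lrp1* without 394_1. Whether those cells had a part in the 3 values was not tested.

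*Soat1* (ENSMUSG00000026600.12; chr1:156424525-156474331, minus strand) encodes the enzyme that esterifies cholesterol for storage in lipid droplets. The PBS libraries had 133, 154, 170, 156 and 204 CPM and the GA libraries 150, 168, 173, 179 and 155 CPM. Both extremes, 388_1 and 388_5, were PBS libraries, and the GA libraries filled a narrower band inside them. Means were 163 ± 26.3 and 165 ± 12.4 CPM (SD, n = 5 each), with a log2 fold change of 0.02 (95% interval -0.20 to 0.23, adjusted *P* = 0.990 by edgeR).

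*Ch25h* (ENSMUSG00000050370.5; chr19:34473778-34475164, minus strand, a single exon) makes 25-hydroxycholesterol, and had the largest fitted difference of the 9. The PBS libraries had 13.7, 34.6, 33.3, 29.4 and 35.3 CPM, resting on 524 to 1245 counts. The GA libraries had 27.1, 36.2, 41.1, 37.2 and 45.5 CPM, resting on 905 to 1770 counts. Above every PBS library were 4 of the GA values, and the fifth, 394_1, lay below all PBS libraries but 388_1. Means were 29.2 ± 8.98 CPM in PBS and 37.4 ± 6.83 CPM in GA (SD, n = 5 each). The fold of 1.28 had a 95% interval of 0.937 to 1.75 (log2 fold change 0.36, standard error 0.21), and the difference did not pass the test (edgeR, *P* = 0.112 unadjusted and 0.895 adjusted; two-sided exact permutation test, *P* = 0.159).

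The *Ch25h* difference rested in part on 388_1, whose value was less than that of any other library by a wide margin. Without it the log2 fold change was 0.18 (adjusted *P* = 0.885 by edgeR). When the GA library 394_1 was left out, the difference of mean log2 CPM was 0.52 in place of 0.41 (two-sided exact permutation test, *P* = 0.0476), the smallest exact p-value of this gene over the libraries left out in turn, while the adjusted p-value by edgeR was 0.983. Of the exon bases of *Ch25h*, 159 are shared with *Gm26902* on the opposite strand, itself counted 21 to 64 times per library. Whether the counting used strand is not given in the sources used here.

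The promoter of *Ch25h* is shown because this gene had the largest fold of the set. The 250 bases before the RefSeq start (chr19:34475149-34475398, minus strand, GRCm38.p6) reach into the first bases of the GENCODE exon. They hold 1 exact cyclic AMP response element (CRE, TGACGTCA, in capitals, the same on both strands), 61 to 54 bases before the start. The motif was chosen after the sequence was read.
Ch25h: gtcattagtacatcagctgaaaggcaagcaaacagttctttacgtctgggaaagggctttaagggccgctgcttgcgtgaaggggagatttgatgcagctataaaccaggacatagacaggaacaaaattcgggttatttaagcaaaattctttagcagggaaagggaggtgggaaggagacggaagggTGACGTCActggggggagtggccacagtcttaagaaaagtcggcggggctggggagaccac
An exact CRE was found in 1.55% of the 32851 windows and in none of the other 6 members with a window. It is a match of letters and not a measured binding site.

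The LXR genes were at very different levels. *Nr1h2* (ENSMUSG00000060601.13; chr7:44549616-44553951, minus strand) had 133, 119, 118, 118 and 91.6 CPM in the PBS libraries and 123, 113, 113, 110 and 114 CPM in the GA libraries. The 3 middle PBS libraries agreed within 1 CPM, and 388_1 and 388_5 lay on either side of them and of all GA libraries. Means were 116 ± 15.0 and 115 ± 4.95 CPM (SD, n = 5 each), and the log2 fold change of -0.02 had a 95% interval of -0.20 to 0.17 (adjusted *P* = 0.984 by edgeR).

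*Nr1h3* (ENSMUSG00000002108.10; chr2:91184061-91202834, minus strand) was counted only 36 to 86 times per library. The PBS libraries had 1.83, 2.21, 1.92, 1.92 and 1.02 CPM and the GA libraries 2.58, 2.16, 1.68, 1.34 and 1.98 CPM. The groups overlapped over most of their range. With means of 1.78 ± 0.449 and 1.95 ± 0.472 CPM (SD, n = 5 each), the log2 fold change of 0.13 had the widest 95% interval of the 9 genes, -0.48 to 0.73 (adjusted *P* = 0.972 by edgeR). A change in either direction of the size seen for *Ch25h* lies within this interval.

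The *Nr1h2* promoter is shown for the LXR gene that accounts for nearly all LXR message here. In the 250 bases before its RefSeq start (chr7:44553966-44554215, minus strand, GRCm38.p6), the ETS factor motif ACTTCCGG occurs exactly 3 times, counting both strands, in capitals. This motif, too, was chosen after the sequence was read.
Nr1h2: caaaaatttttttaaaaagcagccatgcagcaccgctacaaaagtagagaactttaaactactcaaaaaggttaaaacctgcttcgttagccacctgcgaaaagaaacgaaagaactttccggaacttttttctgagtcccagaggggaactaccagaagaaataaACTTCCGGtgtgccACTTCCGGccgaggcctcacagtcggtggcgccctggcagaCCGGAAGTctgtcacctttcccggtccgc
At least 1 exact match was found in 2.88% of the 32851 windows and in none of the other 6 members with a window.

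**Figure D2:**
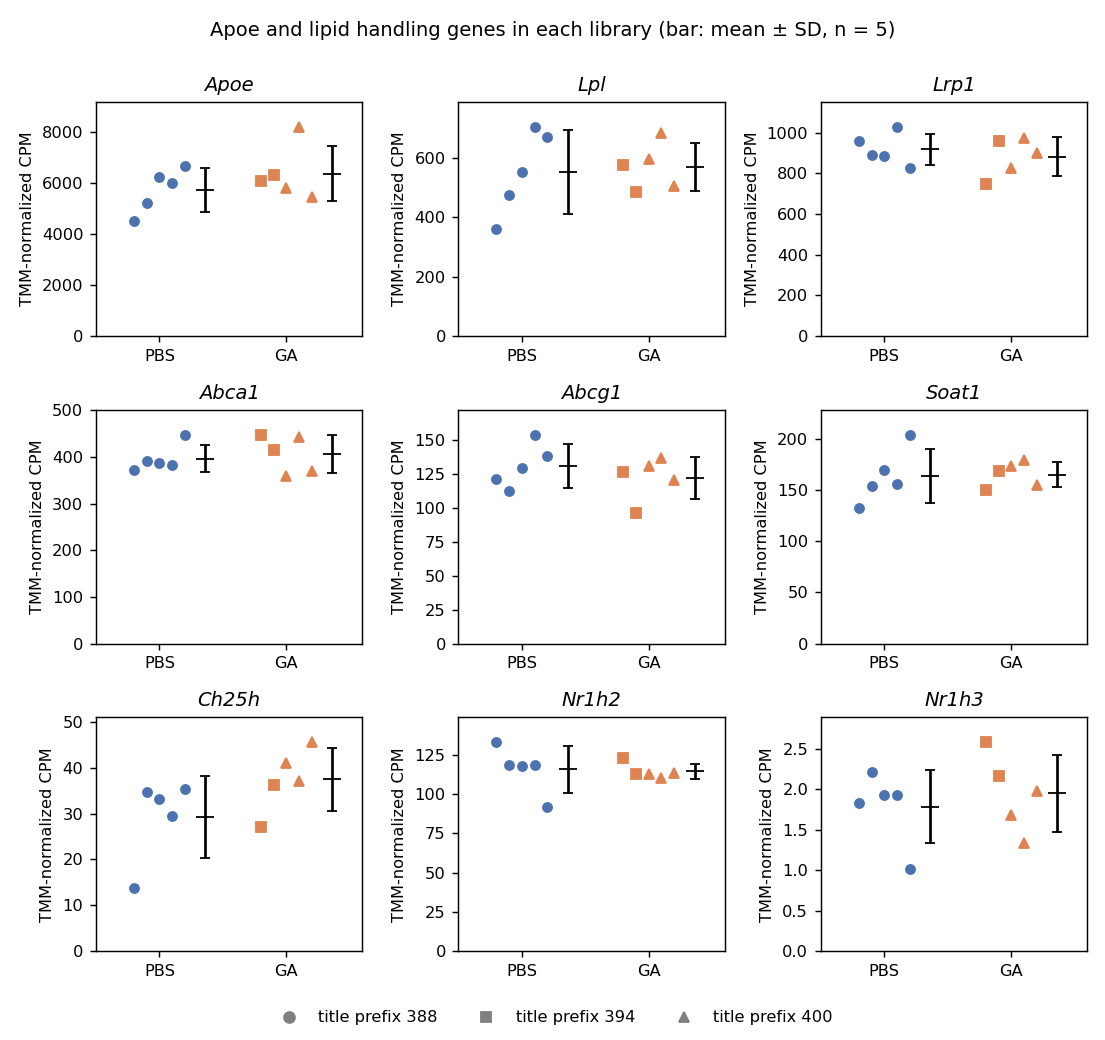
Each panel plots TMM-normalized CPM of 1 gene on an axis from 0, with a point per library (circles prefix 388, squares 394, triangles 400) and the mean ± SD (n = 5) beside each group. PBS and GA overlap in all 9 panels, and the low *Ch25h* value of 388_1 (13.7 CPM) and the high *Apoe* value of 400_2 (8215 CPM) stand out.

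**Figure D3:**
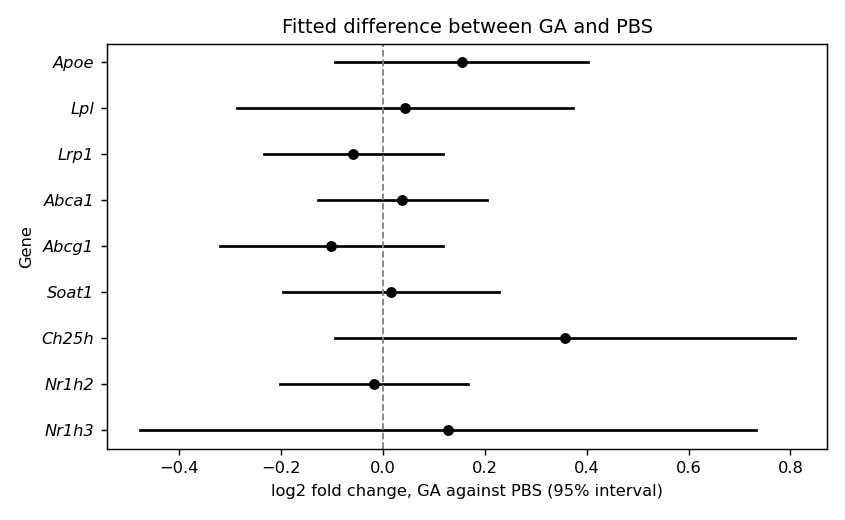
Points are fitted log2 fold changes of GA against PBS from edgeR and lines their 95% intervals. Every interval contains 0, from the narrow one of *Abca1* (-0.13 to 0.20) to the wide one of *Nr1h3* (-0.48 to 0.73).

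The members differed in how much they varied between libraries of one treatment. The within-group SD on the log2 scale was 0.13 for *Abca1*, 0.14 for *Lrp1* and 0.15 for *Nr1h2*, and 0.18 for *Soat1*, 0.19 for *Abcg1*, 0.23 for *Apoe* and 0.31 for *Lpl*. *Nr1h3* had 0.38 and *Ch25h* 0.45. The median was 0.22 over all tested genes and 0.12 over the 1993 genes above 100 CPM, and all 7 members above 100 CPM exceeded the latter. The highest library exceeded the lowest 3.32-fold for *Ch25h* and 1.25-fold for *Abca1*.

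The 2 title prefixes within the GA group were compared in the same way, with 2 libraries against 3. None of the 9 genes was called by edgeR, beside 2 of 15076 genes tested (0.0133%). *Ch25h* had a mean of 31.7 CPM with prefix 394 and 41.3 CPM with prefix 400 (log2 fold change 0.38, 95% interval 0.06 to 0.71, adjusted *P* = 0.408 by edgeR). It was the only member with an unadjusted p-value under 0.05, beside 1528 genes (10.1%) in all. The libraries of the prefixes did not overlap for *Ch25h* and for *Nr1h3* (2.37 and 1.66 CPM, adjusted *P* = 0.658 by edgeR), 2 of 9 members, which is near the 27.5% of all tested genes. Both shares of members are near those of all tested genes. The *Ch25h* difference between the prefixes was 0.19 on the log2 scale without 394_1 and 0.60 without 394_2. Against PBS, its log2 fold change was 0.12 with the prefix 394 libraries alone and 0.50 with the prefix 400 libraries alone, and neither passed (adjusted *P* = 1 and 0.779 by edgeR).

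The genes around these 9 were taken from 8 lists with 98 genes, of which 75 were tested. None was called by edgeR, 5 had an unadjusted p-value under 0.05 (4 higher in GA, beside 2.58% of all tested genes, and 1 lower, beside 3.17%), and 38 lay above and 37 below 0, with a median log2 fold change of 0.01. The list of LXR partners and targets had 16 tested genes with 8 above and 8 below 0 (median 0.01). Lipoprotein receptors and their partners had 8 of 11 above 0 (median 0.04), and genes of oxysterol formation and sensing 5 of 7 (median 0.06). Lipase partners, fatty acid uptake and neutral lipases had 9 of 13 below 0 (median -0.05), and lysosomal cholesterol export 6 of 9 (median -0.03). Of 8 further sterol and lipid transporters 5 were below 0 (median -0.01), of 7 genes of esterification and lipid droplets 5 were above 0 (median 0.05), and the 4 tested apolipoproteins split evenly (median 0.06).

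*Fasn*, the fatty acid synthase and a gene under LXR and SREBP control, was the only one of the 75 whose groups did not overlap, beside 0.891% of all tested genes. The PBS libraries had 26.6, 23.9, 15.7, 15.2 and 25.6 CPM and the GA libraries 27.7, 28.1, 30.7, 39.4 and 32.2 CPM. The lowest GA library exceeded the highest PBS library by about 1 CPM. Means were 21.4 ± 5.54 and 31.6 ± 4.75 CPM (SD, n = 5 each) and differed by 0.56 on the log2 scale (standard error 0.16 by edgeR). The difference did not pass after adjustment over all genes (edgeR, *P* = 0.00412 unadjusted and 0.847 adjusted; two-sided exact permutation test, *P* = 0.00794, the smallest that 252 arrangements can give). Groups that do not overlap always give that smallest exact p-value, and *Fasn* was named for such values. The exact test therefore adds no support.

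The other 4 genes with an unadjusted p-value under 0.05 had smaller differences. *Sorl1*, a sorting receptor that binds ApoE, had means of 113 and 140 CPM (log2 fold change 0.30, edgeR, adjusted *P* = 0.848; two-sided exact permutation test, *P* = 0.0238). Of its GA libraries, 394_2 with 195 CPM stood apart from the others at 118 to 131 CPM, and without it the log2 fold change was 0.15. *Osbp* and *Osbpl1a*, which encode oxysterol-binding proteins, had 95.1 and 110 CPM (log2 fold change 0.22, edgeR, adjusted *P* = 0.859; exact permutation *P* = 0.0159) and 66.7 and 74.9 CPM (0.17, adjusted *P* = 0.854; exact permutation *P* = 0.0317). *Osbp* was lowest in 388_4 (69.5 CPM), and without that library its log2 fold change was 0.12. *Mgll*, the monoacylglycerol lipase, had 70.0 CPM in PBS and 60.0 CPM in GA (log2 fold change -0.22, edgeR, adjusted *P* = 0.854; exact permutation *P* = 0.0952). None of the 5 genes passed after adjustment over all tested genes. The exact p-values are unadjusted and come from the same values by which these genes were picked.

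The most abundant genes of each list were also set side by side by their level per kb. *Lamp1*, a lysosomal membrane protein, was highest of them at 654 CPM per kb, and *Npc2*, which binds cholesterol in the lysosome, had 105. The oxysterol receptor *Gpr183*, which senses a product made downstream of *Ch25h*, had 146 CPM per kb, and *Cyp27a1*, the sterol 27-hydroxylase, 48.8. *Abca9* had 124 CPM per kb, above both efflux transporters. *Lrp10* had 55.0 CPM per kb and *Lrpap1*, the chaperone of *Lrp1*, 73.2.

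The LXR targets *Lpcat3*, which remodels phospholipids, and *Mylip*, which degrades LDL receptors, had 73.8 and 58.9 CPM per kb. *Pnpla2*, the triglyceride lipase, had 32.8 CPM per kb and *Lipa*, the lysosomal acid lipase, 30.1. The esterification genes were lower, with *Dgat1* at 16.5 and *Nceh1*, a cholesteryl ester hydrolase, at 15.0 CPM per kb. Apart from *Apoe*, the list of apolipoproteins was low, with *Apobr*, a receptor, at 5.53 and *Apoc4* at 0.281 CPM per kb. The adjusted p-values of these 15 genes ran from 0.895 to 0.986 by edgeR.

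Listed at 0 in every library were *Vldlr*, *Abcg4*, *Gpihbp1*, *Cidec* and *Cyp7b1*, where a count of 0 allows up to 3 counts per library. *Apoc2* and *Hsd3b7* were also at 0, but 646 of the 813 exon bases of *Apoc2* and 2746 of the 2769 of *Hsd3b7* are shared with other annotated genes, and reads there may not have been assigned.

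**Figure D4:**
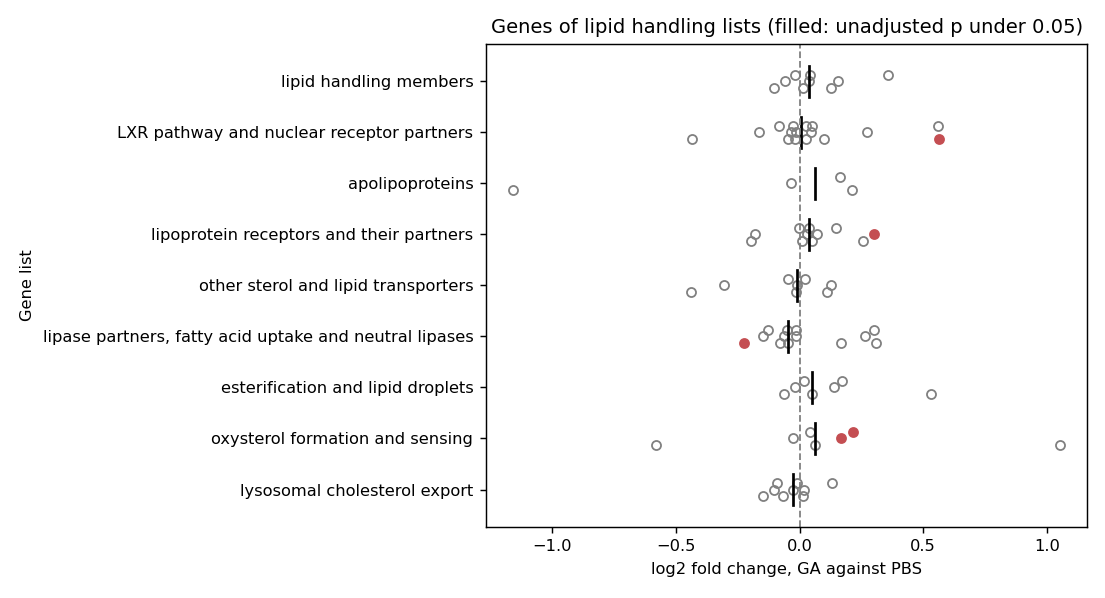
Each point is the fitted log2 fold change of 1 tested gene, GA against PBS, in a row for the 9 members and a row for each of the 8 lists, with the median of each row as a black line. The medians lie between -0.05 and 0.06, and the 5 filled points are those with an unadjusted p-value under 0.05, led by *Fasn* at 0.56.

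Whether the 9 genes moved together was asked across the 10 libraries, over 36 pairs on log2 CPM with permutation tests of 100000 draws and adjustment over the pairs. By Pearson's r only *Soat1* and *Nr1h2* passed, and they moved in opposite directions. Their r was -0.93 (adjusted permutation *P* = 0.00792) and their Spearman's rho -0.94 (adjusted permutation *P* = 0.00792). The library 388_1 had the most *Nr1h2* and the least *Soat1*, and 388_5 the reverse. Without these 2 libraries r was -0.76, within the PBS libraries -0.96, within the GA libraries -0.83, and with group means removed -0.93 (adjusted permutation *P* = 0.00972).

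*Nr1h2* and *Soat1* also differ in base composition, with 60.6% and 44.1% GC in their longest transcripts. A relation to the level of GC-rich relative to GC-poor genes across the 10 libraries did not pass for either, with r -0.31 and rho -0.0061 for *Soat1* (permutation *P* = 0.382 and 1) and r 0.45 and rho 0.018 for *Nr1h2* (permutation *P* = 0.182 and 0.973). Over the 9 members tested in this way, the adjusted permutation *P* of r was 0.606 for *Soat1* and 0.547 for *Nr1h2*. With the trends of GC content and length removed from each library, r was -0.89 (adjusted permutation *P* = 0.0302), while rho was -0.85 and no longer passed (adjusted permutation *P* = 0.0526). Among the other 14480 tested genes, 3 (0.0207%) were as strongly correlated with *Soat1* in absolute value and 11 (0.076%) with *Nr1h2*.

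*Lpl* and *Abcg1* passed by rank only, with rho 0.89 (adjusted permutation *P* = 0.0187) and r 0.67 (adjusted permutation *P* = 0.167), and r was 0.85 without 388_1 and 388_4. *Apoe* and *Lpl* had an r of 0.79 (adjusted permutation *P* = 0.134) and a rho of 0.60 (adjusted permutation *P* = 0.247). That r was 0.91 within PBS and 0.70 within GA, but 0.52 without 388_1 and 400_2, so it rests in part on those libraries. *Apoe* and *Soat1* had an r of 0.75 and *Nr1h2* and *Nr1h3* an r of 0.76 (adjusted permutation *P* = 0.134 for both). The pair of LXR-driven transporters, *Abca1* and *Abcg1*, had an r of 0.04 and a rho of 0.08 (adjusted permutation *P* = 0.958 and 0.974).

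**Figure D5:**
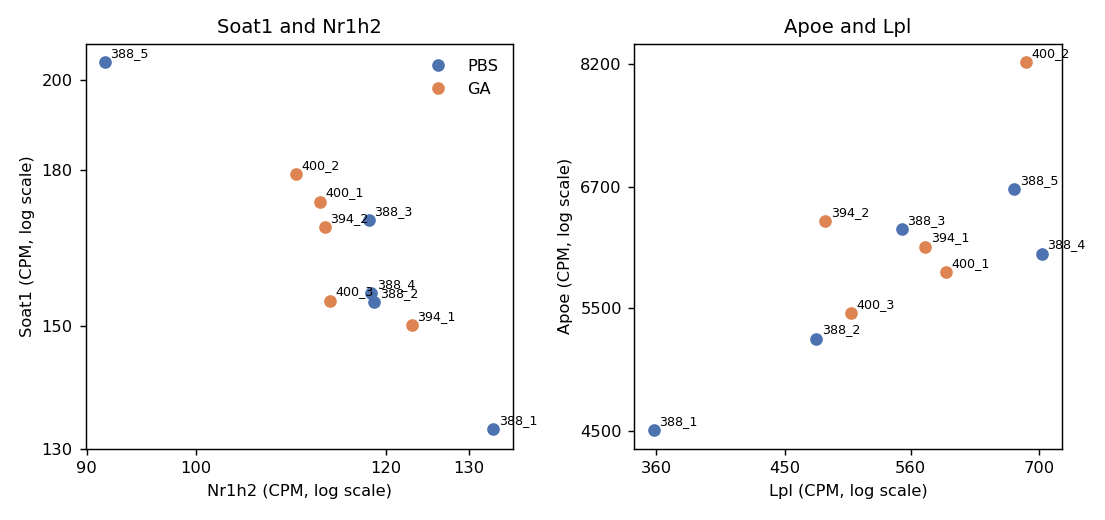
The left panel plots *Soat1* against *Nr1h2* and the right panel *Apoe* against *Lpl*, in CPM on log axes with a labelled point per library. *Soat1* declines as *Nr1h2* goes from 91.6 CPM in 388_5 to 133 CPM in 388_1 (r -0.93), and *Apoe* climbs with *Lpl* from 388_1 to 400_2 (r 0.79).

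The genes whose log2 CPM was most like that of a member over the 10 libraries were picked from all tested genes, so their r is a description. For *Apoe* they were *Igf1*, a growth factor that microglia make (0.91), *Sh3bgrl* (0.91) and *Washc5*, a subunit of the endosomal WASH complex (0.90). For *Lpl* they were *Capg*, an actin-capping protein (0.96), *Dubr*, a long non-coding RNA (0.95), and *St8sia4*, a polysialyltransferase (0.95). For *Abca1* they were *Pgm2* (0.89), *Kdm7a*, a histone demethylase (0.87), and *Zfp862-ps*, a pseudogene (0.86).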

How the data were processed

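RNA-seq of 10 libraries of sorted microglia was analysed. The authors deposited whole-number counts of reads per gene, without normalization. The submitters' processing notes name bcl2fastq 2.19.0, fastp 0.20.0, STAR 2.7.0f, Subread 1.6.4 with featureCounts, DESeq2 and GRCm38.p6. The annotation and strand setting are not given in the sources used here.

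The members and lists were chosen with earlier results of these data known. Genes were kept with edgeR's filterByExpr (minimum count 10) and scaled with TMM factors, and the quasi-likelihood F-test of edgeR compared GA with PBS without covariates, with Benjamini-Hochberg adjustment over 14481 genes and a threshold of 0.05 (R 4.3.3, edgeR 4.0.16, limma 3.58.1, DESeq2 1.42.0, Python 3.11.15). Exact permutation tests were two-sided, on log2(CPM + 0.1). Named genes were the 9 members, the genes of the proteins stained for the sort, and list genes with an unadjusted p-value under 0.05 or groups that did not overlap. Also named were the 2 genes of each list with the highest level per kb, and the 3 genes most correlated with *Apoe*, *Abca1* and *Lpl*. Of these, 1 list gene is not reported here, nor is 1 allele of the mice. Exons came from GENCODE M21, which holds 54510 of the 55453 symbols, and promoters from RefSeq (7 of 9 members matched, *Lpl* and *Abcg1* not). Limits from counts of 0 cover counting error only, since the reads carry no molecular identifiers. No 2 libraries agreed within sampling noise (chi-square per degree of freedom at least 13.0). Alternatives were other tools, normalizations, filters and lengths, each library left out, each prefix alone, and a replicate block. The removal of GC and length trends, the looser DR4 searches and the CRE and ETS motifs were added after the data were seen.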

Additional observations from a re-analysis of the deposited data

Results flagged for a closer look

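In 28 groups of 5 libraries (the 9 members and 5 genes of the lists, in PBS and GA), the gap of the highest or lowest library to its neighbour was compared with Dixon's 95% critical value, 0.71 of the range. Chance alone marks about 1 group in 20, and 5 groups were marked. *Abca1* had 448 CPM in PBS library 388_5, above the other PBS libraries by 0.751 of the range. *Ch25h* had 13.7 CPM in PBS library 388_1, below the others by 0.726 of the range. *Nr1h2* had 123 CPM in GA library 394_1 (0.722 of the range), *Sorl1* 195 CPM in GA library 394_2 (0.835), and *Osbp* 69.5 CPM in PBS library 388_4 (0.775).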

How the results depend on the processing

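No alternative called any of the 9 members or any gene of the lists. Adjusted p-values of the members ran from 0.657 to 1 over 20 alternative fits each. Over all genes, DESeq2 with its defaults called 2 genes where edgeR called 0, and leaving out 1 library gave 0 to 1. *Apoe*, *Ch25h* and *Lrp1* kept their direction in all 20 fits. The log2 fold changes of other members changed sign. With the GA libraries of prefix 394 alone, the log2 fold change was -0.054 for *Lpl*, -0.030 for *Soat1*, 0.033 for *Nr1h2*, 0.13 for *Abca1* and 0.42 for *Nr1h3*. With those of prefix 400 alone it was 0.11, 0.054, -0.043, -0.016 and -0.092 in that order. *Abcg1* had -0.23 with prefix 394 alone and -0.014 with prefix 400 alone, and *Lrp1* -0.10 and -0.022. Over the 10 fits without 1 library, the log2 fold change ran from -0.078 to 0.15 for *Lpl*, -0.050 to 0.11 for *Soat1*, -0.087 to 0.037 for *Nr1h2*, -0.015 to 0.24 for *Nr1h3*, -0.15 to -0.026 for *Abcg1* and -0.092 to -0.0027 for *Lrp1*, and over the 5 fits of prefix 400 against 394 without 1 GA library from -0.14 to 0.18 for *Apoe* and -0.086 to 0.27 for *Lrp1*. The difference of mean log2 CPM then ran from -0.072 to 0.17 for *Lpl*, -0.00067 to 0.080 for *Abca1*, -0.044 to 0.11 for *Soat1*, -0.091 to 0.044 for *Nr1h2*, -0.047 to 0.25 for *Nr1h3* and 0.16 to 0.52 for *Ch25h*. With group means removed, r was 0.11 for *Abcg1* and *Ch25h* and -0.048 for *Abcg1* and *Lrp1*, and with GC and length trends removed -0.18 for *Apoe* and *Lrp1*. Other pairs, none of which passed, also changed sign without the 2 farthest libraries, and for the 4 that moved most r was -0.34 in place of 0.54 for *Apoe* and *Ch25h*, -0.090 in place of 0.56 for *Lpl* and *Ch25h*, 0.49 in place of -0.29 for *Abca1* and *Lrp1*, and -0.48 in place of 0.19 for *Nr1h2* and *Lrp1*. The cause of these shifts was not tested.

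Some library numbers recur across the groups. The deviations of same-numbered libraries from their group means had correlations of -0.12 to 0.05 over all tested genes. No pairing was seen in these values, and what the number means is not stated. The numbers of 388_4 and 388_5 recur in no GA library. With the number as a replicate block, both therefore add nothing to the difference, which compares GA with the other PBS libraries. In that fit the log2 fold change was 0.021 for *Abcg1*, -0.039 for *Nr1h3*, 0.32 for *Lpl*, 0.59 for *Ch25h* and 0.26 for *Apoe*. It was 0.13 for *Soat1*, 0.072 for *Abca1*, -0.11 for *Nr1h2* and -0.057 for *Lrp1*. The block changed no call, with 0 genes called. Depth limits *Nr1h3* (36 to 86 counts) more than any other member.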
